A study of Mus musculus with 28 samples.

Results

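Proteasome subunit genes were examined in single neurons of the mouse primary motor cortex (M1). The 10 genes were selected by name: Psma3, Psmb2, Psmb5 and Psmb6 of the core particle, and Psmc4, Psmc5, Psmd2, Psmd4, Psmd6 and Psmd14 of the regulatory particle. All 10 were among the 1024 genes of the deposited table, whose selection threshold the sources used here do not give. Of 42 further genes for proteasome subunits, activators and assembly factors, 0 had values in the table used here.

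The proteasome is the protease complex that degrades ubiquitin-tagged proteins in the cytosol and nucleus. Its core particle is a barrel of alpha and beta rings, with active sites on certain beta subunits facing the inside. The regulatory particle caps the barrel: ATPases in its base unfold the substrate, other base subunits capture ubiquitin chains, and an enzyme in the lid cuts the chains off. In neurons the complex also turns over synaptic proteins.

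The 28 neurons came from CD1 mice and were collected at postnatal day 30. At embryonic day 15, M1 was electroporated in utero with pCAGIG (GFP in each electroporated cell), pHSE-FLPo (a recombinase driven by a heat shock response element) and pFRT-RFP (a reporter that this recombinase turns on). Dams then received intraperitoneal 25% ethanol (EtOH), either 4.0 g/kg or 1.0 g/kg, or phosphate-buffered saline (PBS), once a day on embryonic days 16 and 17. All neurons were GFP-positive. The groups held 7 EtOH neurons without RFP (RFP-negative EtOH), 15 with RFP (RFP-positive EtOH) and 6 PBS neurons without RFP. RFP marks past activity of the heat shock element, and which dose a neuron's dam received is not stated.

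The labels name no animal, so every group counts as 1 sample: SDs describe the spread over neurons, and no p-values are given. The design text gives 5 PBS neurons where 6 are listed, and a time course label of the PBS neurons mentions EtOH. Grouping here followed the titles and the exposure label. In such samples, a smaller amount of collected cell content and less RNA per cell cannot be told apart.

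Values are logarithmic and were read as log2, an assumption. Neither their unit nor the read depth is stated. They span 1.00 to 13.2 in separate modes, with a trough at 4 above the lowest mode. A value over 4 is called above the trough, and a lower one is not read as absence. Between 273 and 434 genes per neuron lay above it. The pyramidal markers Nrgn or Mef2c did so in every neuron, and the interneuron marker Gad1 in 2 of 7, 3 of 15 and 1 of 6 (RFP-negative EtOH, RFP-positive EtOH, PBS). The myelin gene Mbp did so in 1 of 7, 4 of 15 and 4 of 6.

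Upstream sequences are shown for Psmb6 and Psmb5, the active-site subunits measured, because the groups differed most in Psmb6 and because Psmb5 is the member whose upstream window holds both kinds of stress motif searched. Psmb6 provides the caspase-like activity and Psmb5 the chymotrypsin-like activity. Both are from RefSeq (GRCm38.p6), 5′ to 3′ on the gene's strand: chr11:70525107-70525356, plus strand, 250 bases, and chr14:54618023-54618245, minus strand, 223 bases. Capitals mark motif matches.
Psmb6: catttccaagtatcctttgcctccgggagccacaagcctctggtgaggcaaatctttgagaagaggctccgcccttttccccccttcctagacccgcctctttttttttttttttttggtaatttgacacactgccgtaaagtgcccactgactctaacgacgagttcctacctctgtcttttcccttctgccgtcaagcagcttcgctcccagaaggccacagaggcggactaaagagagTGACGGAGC
Psmb5: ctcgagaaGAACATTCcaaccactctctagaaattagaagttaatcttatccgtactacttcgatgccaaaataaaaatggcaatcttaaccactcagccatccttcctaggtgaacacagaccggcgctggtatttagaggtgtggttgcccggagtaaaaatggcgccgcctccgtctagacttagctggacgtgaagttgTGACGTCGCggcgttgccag
The core letters of the antioxidant response element, TGANNNNGC, are at bases 242 to 250 of the Psmb6 run and 204 to 212 of the Psmb5 run. A heat shock element core, GAANNTTC, is at bases 9 to 16 of the Psmb5 run. Both strands of the 250 bases before the RefSeq start were searched in the 9 members with an entry, all but Psmb2, and the marked matches do not overlap. TGANNNNGC occurred in 2 of 9 members, GAANNTTC in 1 and the other heat shock core, TTCNNGAA, in 1 (Psmd4). Among 32851 promoters, 35.2%, 6.69% and 7.17% held them. A match of letters is a description, not a binding site.

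Within any 1 neuron, some subunit genes lay in the upper modes and the rest in the lowest. A neuron had 1 to 6 of the 10 genes above the trough, with a median of 3. The counts were 1 gene in 2 neurons, 2 in 6, 3 in 8, 4 in 8, 5 in 2 and 6 in 2. RFP-negative EtOH neuron 4 and PBS neuron 4 had the most, and neuron 3 of each EtOH group the fewest. Together, 92 of 280 member values (32.9%) were above the trough, against 33.7% of all values in the table.

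**Figure D1:**
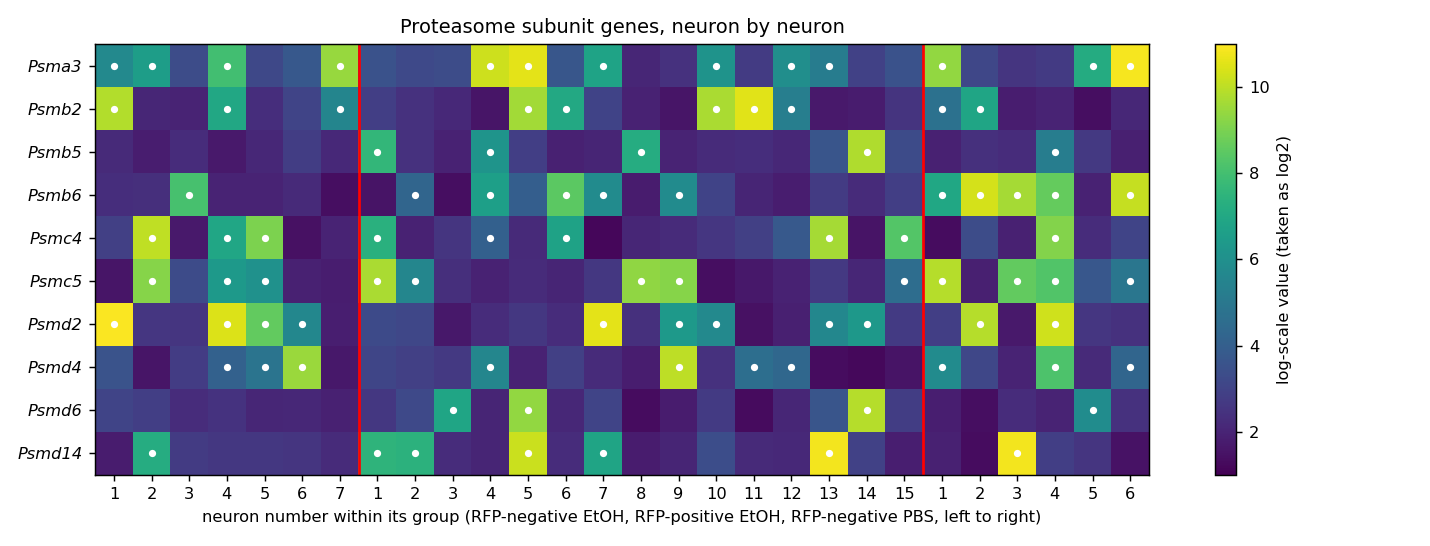
Values of the 10 proteasome subunit genes (rows) in each of 28 neurons (columns); color is the log-scale value read as log2, and red lines separate the 3 groups. White dots mark values above the trough at 4: a neuron has 1 to 6 dots, and Psmb6 has one in 5 of 6 PBS neurons.

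Groups were similar in this number. The medians were 3 (RFP-negative EtOH, 1 to 6), 3 (RFP-positive EtOH, 1 to 5) and 3.5 (PBS, 2 to 6). Over the 28 neurons, the number of members above the trough and the number of other genes above it had a Pearson r of 0.23, a description that mixes groups and libraries.

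**Figure D2:**
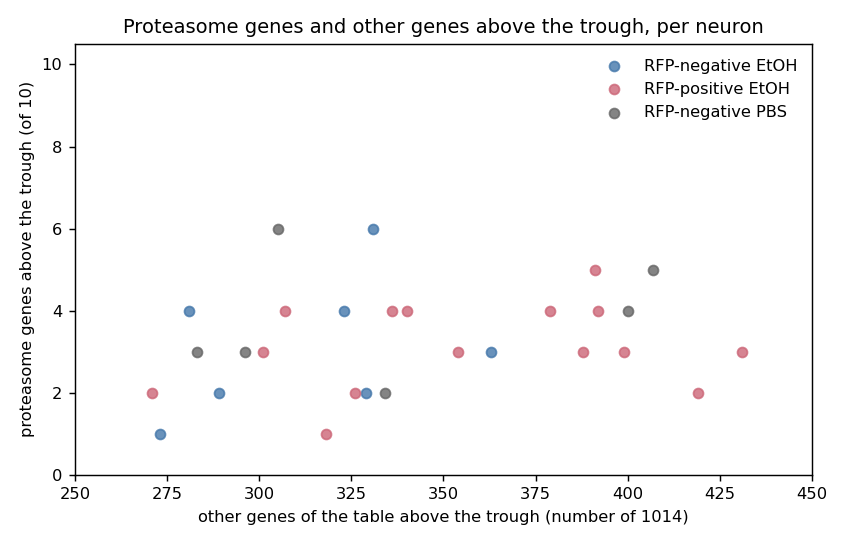
Each point is 1 neuron: the x axis counts the other 1014 genes above the trough and the y axis the proteasome subunit genes above it, colored by group. The groups overlap, and Pearson r over the 28 neurons is 0.23.

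Core and regulatory genes were both represented in 22 of 28 neurons. Within EtOH these were 3 of the 7 neurons without RFP and 13 of the 15 with it, and in PBS all 6. Of the other 1014 genes, a mean of 30.8% (RFP-negative EtOH), 35.2% (RFP-positive EtOH) and 33.3% (PBS) lay above the trough per neuron. Such counts by class were not made for other sets of genes, so those in this paragraph have no background. No neuron had all 4 core genes or all 6 regulatory genes above the trough. RFP-positive EtOH neuron 13 alone had a gene above it in the core and in each of the ATPase, other base and lid classes. An active-site gene, Psmb5 or Psmb6, exceeded the trough in 1 of 7, 8 of 15 and 5 of 6 neurons of the groups in that order, and both were in RFP-positive EtOH neuron 4 and PBS neuron 4.

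Subunit genes varied with little relation to each other across neurons. The 45 pairs had Pearson r from -0.44 (Psmb2 and Psmc5) to 0.31 (Psmb5 and Psmd6), with a median of -0.04. Of these pairs 42.2% were positive, beside 48.9% of the 523776 pairs of all genes, whose median was -0.01. Values that sit either in the lowest mode or far above it make such r weak descriptions. The ATPase genes Psmc4 and Psmc5 (r = 0.27) were above the trough together in 6 neurons, including RFP-negative EtOH neurons 2, 4 and 5, where alone in that group either was. Psma3 and Psmb2 were above it together in 7 neurons, the most of any pair, and Psmc5 with Psmb6 or with Psmd4 in 6 each. Psmd4 was never above it together with Psmd6 or with Psmd14. Nor was Psmb2 with Psmb5, or Psmd6 with Psmb6, Psmc4 or Psmc5. Joint counts were not made for all pairs of genes, so those given here have no background. Genes seldom above the trough can share few neurons: Psmd6 was above it in 4 of 28, Psmb5 in 5 and Psmd14 in 7. Psma3 was above it in 13, the most of any member.

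Psmb6 (ENSMUSG00000018286, chromosome 11, 70525367 to 70527858, plus strand; coordinates here and below are GENCODE M21 on GRCm38) differed most between groups. The PBS neurons had 6.95, 10.4, 9.64, 8.62, 1.95 and 10.1. RFP-negative EtOH neurons 1 to 7 had 2.32, 2.33, 8.10, 2.00, 1.98, 2.20 and 1.37. RFP-positive EtOH values ran from 1.38 to 8.48 around a median of 2.87. High values were thus the rule in PBS, with neuron 5 the exception, and low ones in RFP-negative EtOH, with neuron 3 the exception, and through these neurons the groups overlap.

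The share of neurons with Psmb6 above the trough was 83.3% in PBS (5 of 6, exact Clopper-Pearson 95% interval 35.9 to 99.6%). It was 14.3% in RFP-negative EtOH (1 of 7, 0.36 to 57.9%) and 33.3% in RFP-positive EtOH (5 of 15, 11.8 to 61.6%). These intervals overlap and cover counting of neurons only. Means were 7.94 ± 3.19 (SD, n = 6), 2.90 ± 2.32 (SD, n = 7) and 3.63 ± 2.16 (SD, n = 15). RFP-positive EtOH neurons 2 and 5 lay next to the trough, at 4.25 and 3.97.

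Psmb5 (ENSMUSG00000022193, chromosome 14, 54614119 to 54618022, minus strand) was low in all 7 RFP-negative EtOH neurons, from 1.67 to 2.83 with a median of 2.16. A count of 0 of 7 allows a share of up to 42.9% by the limit of 3 neurons used for counts of 0. The upper end of the exact Clopper-Pearson 95% interval, a different measure, is 41.0%. In RFP-positive EtOH neurons it ran from 1.91 to 9.80, median 2.41, and numbers 1, 4, 8 and 14 were above the trough. PBS neurons ran from 1.86 to 5.25, median 2.34, with 1 above. Of its 51-base transcript stretches, as long as the reads, 53.2% also occur in transcripts of other genes, mostly Gm3375, so reads of those genes may be included.

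Psma3 (ENSMUSG00000060073, chromosome 12, 70974621 to 70996347, plus strand), a subunit of the alpha ring, was above the trough in 13 of 28 neurons, the most of any member. Its medians were 5.71 (3.18 to 9.46) in RFP-negative EtOH, 3.53 (2.09 to 10.6) in RFP-positive EtOH and 5.15 (2.54 to 10.9) in PBS. The ranges largely coincide. It had 9 values within 1 unit below the trough, so its count depends on the limit, and 15.3% of its 51-base stretches are shared.

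Psmb2 (ENSMUSG00000028837, chromosome 4, 126677630 to 126709714, plus strand), a beta subunit without an active site, was above the trough in 3 of 7, 5 of 15 and 2 of 6 neurons. The medians were 3.05 (2.00 to 9.86), 2.51 (1.56 to 10.6) and 2.05 (1.38 to 6.87). Every group had most neurons in the lowest mode.

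**Figure D3:**
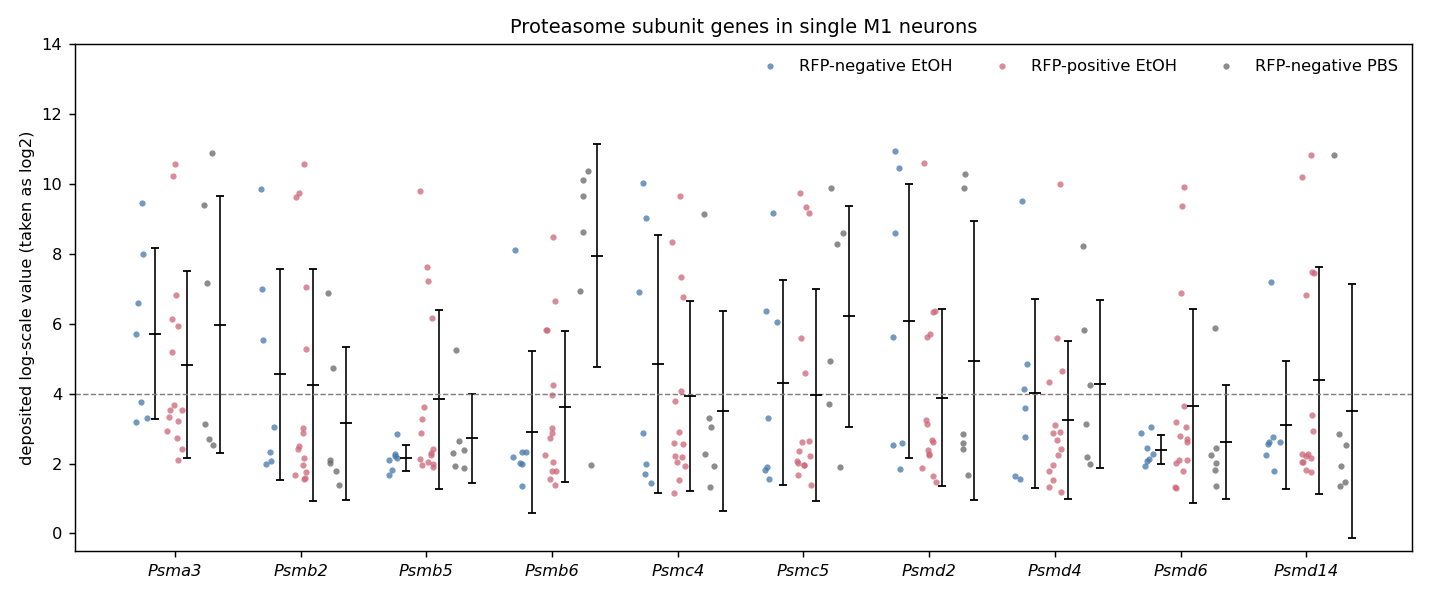
Log-scale values, read as log2, of the 10 proteasome subunit genes (x axis), 1 point per neuron colored by group; black marks are the group mean ± SD over neurons and the dashed line is the trough at 4. Psmb6 is above the line in 5 of 6 PBS neurons, and Psmb5 and Psmd6 are below it in all 7 RFP-negative EtOH neurons.

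The ATPases unfold substrates. Psmc5 (ENSMUSG00000020708, chromosome 11, 106256154 to 106263120, plus strand) had PBS values of 9.87, 1.90, 8.58, 8.28, 3.70 and 4.92, so 4 of 6 were above the trough. Its medians were 3.30 (1.57 to 9.17) in RFP-negative EtOH, with 3 of 7 above, and 2.36 (1.38 to 9.75) in RFP-positive EtOH, with 5 of 15 above. Psmc4 (ENSMUSG00000030603, chromosome 7, 28041707 to 28050101, minus strand) exceeded the trough in 3 of 7, 5 of 15 and 1 of 6, with medians of 2.88 (1.44 to 10.0), 2.59 (1.17 to 9.65) and 2.66 (1.32 to 9.13). For both genes the groups overlap, and the exact intervals of the shares do too.

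Psmd2 and Psmd4 belong to the base. Psmd2 (ENSMUSG00000006998, chromosome 16, 20651652 to 20663414, plus strand) is a scaffold that docks shuttle proteins carrying ubiquitinated cargo. Its medians were 5.62 (1.84 to 10.9), 2.68 (1.46 to 10.6) and 2.71 (1.67 to 10.3), with 4 of 7, 5 of 15 and 2 of 6 neurons above the trough. Each group therefore spanned a similar range, with different numbers of high neurons. Of its 51-base stretches, 17.4% are shared, mainly with Gm5422.

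Psmd4 (ENSMUSG00000005625, chromosome 3, 95032694 to 95042614, minus strand) is a receptor for ubiquitin chains. It was above the trough in 3 of 7, 4 of 15 and 3 of 6 neurons, and 5 of those 10 values lay within 1 unit of it. The medians were 3.58 (1.55 to 9.50), 2.67 (1.20 to 10.0) and 3.70 (1.98 to 8.22).

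Of the lid genes, Psmd14 was above the trough in 7 of 28 neurons, beside a median of 8 over all genes. The core gene Psmb5 was above it in fewer, 5. Of all genes, 40.1% were above it in fewer neurons than Psmd14, and 7.91% in fewer than Psmd6. Psmd14 (ENSMUSG00000026914, chromosome 2, 61711694 to 61800376, plus strand) encodes the metalloprotease that releases ubiquitin chains. It was above the trough in RFP-negative EtOH neuron 2 (7.21), PBS neuron 3 (10.8) and RFP-positive EtOH neurons 1, 2, 5, 7 and 13 (6.83 to 10.8), and the group medians were 2.62, 2.24 and 2.28. Psmd6 (ENSMUSG00000021737, chromosome 14, 14112174 to 14120984, minus strand), a structural subunit, was above it in 4 of 28 neurons, the fewest of any member. All RFP-negative EtOH values lay between 1.92 and 3.03, median 2.29. RFP-positive EtOH neurons 3, 5 and 14 had 6.87, 9.37 and 9.90, and PBS neuron 5 had 5.87.

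Between the EtOH groups, which differ in reporter state, Psmb5, Psmd14 and Psmd6 had higher means with RFP, by 1.68, 1.27 and 1.26, and Psmd2 had a lower mean, by -2.20. That is 3 of 10 members at least 1 higher and 1 of 10 at least 1 lower, beside 26.3% and 15.7% of all 1024 genes, so the members' counts are near the background. Their median difference was -0.33, and that of all genes 0.31. Each of the 4 differences was smaller than the pooled SD over neurons (2.15 to 3.02), and all 10 genes overlapped between groups. With upper quartile scaling, which moves every difference by -0.51, 1 member was higher and 4 were lower, and the shares of all genes became 13.6% and 26.2%. Psmd14 was -0.34 by medians over neurons.

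**Figure D4:**
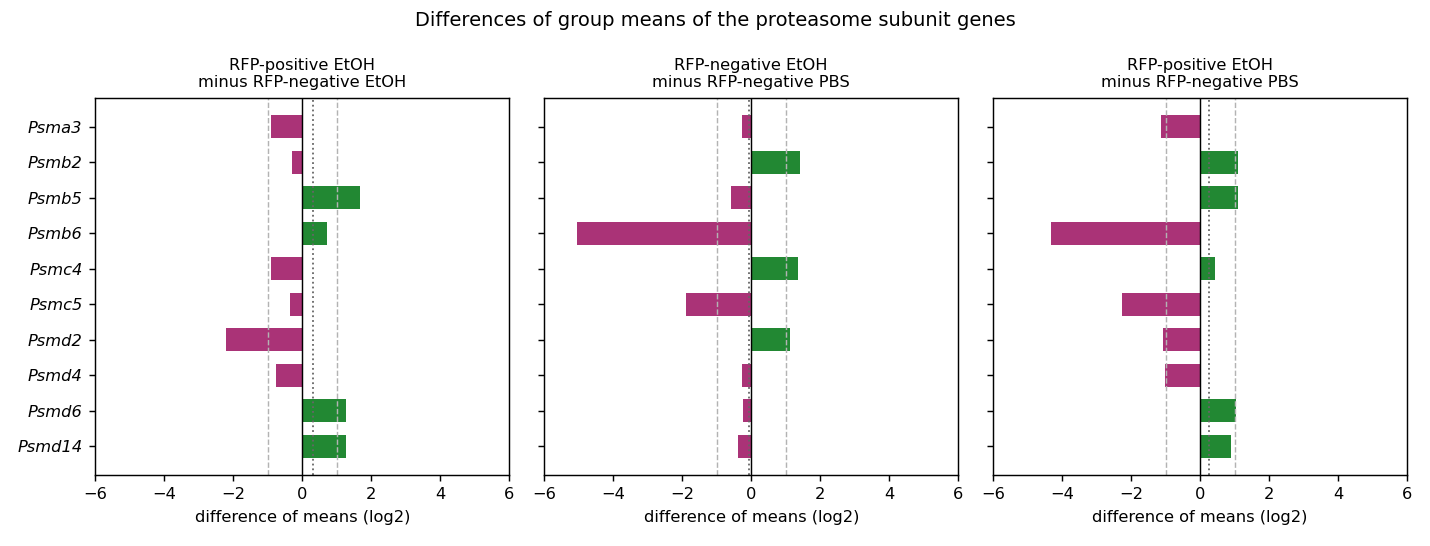
Differences of group means on the log2 scale (x axis) for the 10 proteasome subunit genes in the 3 comparisons; dashed lines mark a difference of 1 in size and dotted lines the median of all 1024 genes. Psmb6 stands at -5.04 and -4.31 in the comparisons with PBS, which share the same 6 PBS neurons.

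Exposure was compared among RFP-negative neurons, EtOH against PBS. Psmb6 differed by -5.04, rank 2 from the lowest of 1024 genes, and was the only member whose difference exceeded the pooled SD over neurons (2.75). Psmc5 was lower as well, by -1.90, while Psmb2, Psmc4 and Psmd2 were higher, by 1.40, 1.35 and 1.14. Thus 3 of 10 members were at least 1 higher and 2 of 10 at least 1 lower, beside 23.8% and 26.8% of all genes, again near the background. The median difference was -0.26, and -0.06 for all genes. Upper quartile scaling moves every difference by 0.55, turns the members' median to 0.30 and gives 35.4% and 18.3% of all genes. Leaving out single neurons moved Psmd2 between 0.33 (without RFP-negative EtOH neuron 1) and 2.20 (without PBS neuron 4), and it was -0.18 in the 24 neurons that share exactly equal values.

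The Psmb6 difference was negative in each of 8 other settings, from -6.93 with medians to -3.69 with low values raised to the trough. Without single neurons it ran from -6.24 (without PBS neuron 5) to -4.55 (without PBS neuron 2). Glial transcripts differed between the same groups. Mbp averaged 6.96 in PBS and 3.25 in RFP-negative EtOH neurons, above the trough in 4 of 6 and 1 of 7, and the astrocyte transcript Slc1a2 differed by -2.06. Mbp ran from 2.20 to 10.6 in PBS, 2.09 to 8.26 in RFP-negative EtOH and 2.19 to 8.48 in RFP-positive EtOH neurons. In PBS, Psmb6 was above the trough in 2 of 2 neurons with Mbp at or below it and in 3 of 4 with Mbp above it. In RFP-negative EtOH these counts were 1 of 6 and 0 of 1, and in RFP-positive EtOH 3 of 11 and 2 of 4. PBS neuron 5, low in Psmb6, had 10.2 for Mbp. Whether glial content accounts for the Psmb6 difference was not tested.

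RFP-positive EtOH against PBS neurons differ in both reporter state and exposure, and this comparison reuses the same 6 PBS neurons. Psmb6 differed by -4.31 and Psmc5 by -2.25. Psma3, Psmd2 and Psmd4 were lower by -1.14, -1.07 and -1.03, and Psmb5, Psmb2 and Psmd6 higher by 1.11, 1.10 and 1.03. Hence 3 of 10 members were at least 1 higher and 5 of 10 at least 1 lower, beside 24.9% and 19.2% of all genes, with median differences of -0.30 and 0.26. All but Psmb6 and Psmc5 were close to 1 in size: without single neurons, the counts ran from 0 to 4 higher and 2 to 5 lower. Psma3 was 0.061 in the 24 neurons, Psmd4 0.26 with arithmetic means, and Psmd2 1.72 among neurons with Mbp at or below the trough, where 2 PBS neurons remain.

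Genes for ubiquitin, its shuttles and the ligase adaptor Cacybp were read from a list chosen by function, with earlier results of these data known. Those given here had higher means in RFP-negative EtOH than in PBS neurons. Of all 1024 genes, 497 did so, with a median of -0.06, and 23.8% were at least 1 higher. Cacybp, which links ubiquitin ligases to their targets, differed by 4.61, rank 1 of 1024. The polyubiquitin gene Ubb differed by 1.25, the shuttle Ubqln2 by 1.03 and the ubiquitin fusion gene Rps27a by 0.23. In RFP-positive EtOH against PBS, Cacybp (2.18) and Rps27a (1.55) were past 1, as were 24.9% of all genes in that direction. Between the EtOH groups, Cacybp (-2.43) was lower with RFP and Rps27a (1.32) higher. There, 15.7% of all genes were at least 1 lower and 26.3% at least 1 higher.

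Ubb was above the trough in 6 of 7, 15 of 15 and 6 of 6 neurons, with medians of 10.7, 9.67 and 9.12. Of 39 listed genes for ubiquitin activation, transfer and removal, 14 were measured. In RFP-negative EtOH against PBS, 5 were at least 1 higher and 5 at least 1 lower, beside 23.8% and 26.8% of all genes, with a median of 0.42 beside -0.06. The conjugating enzyme Ube2n (2.99) and the ligase Nedd4 (2.29) were among the higher, and the chaperone-linked ligase Stub1 (-2.39) and the activating enzyme Uba1 (-2.09) among the lower. Between the EtOH groups the counts were 3 and 3, beside 26.3% and 15.7% of all genes, with a median of 0.46 beside 0.31, and Uba1 differed by 2.12 and Ube2k by -1.66. In RFP-positive EtOH against PBS they were 5 and 2, beside 24.9% and 19.2%, with a median of 0.37 beside 0.26. Of 5 regulators of proteasome genes, 0 had values.

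The CCT chaperonin, another complex of many subunits, had 4 measured genes with median differences of 0.57, -0.38 and 0.21 in the comparisons as ordered above. Among the genes outside the list whose values were most like the mean of the 10 members over the 28 neurons were Cd81 (r = 0.55), Ttc1 (0.51), Pea15a (0.49) and Mtch2 (0.48). Ttc1 and Mtch2 were above the trough in 3 neurons each, so their r rests on few points.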

How the data were processed

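Neuron contents were amplified with a SMARTer Ultra Low Input kit, made into Nextera XT libraries and read for 51 cycles, per the labels' protocols. CASAVA 1.8 and FASTX-Toolkit handled demultiplexing and quality filtering, per the same protocols. Bowtie2, Cufflinks 2.2.1 and GRCm38 are named in the submitters' processing notes. The authors deposited 1 log-scale value per gene and neuron, read here as log2. Its base, unit and scaling per length are not stated, so levels were not compared between genes. All 28 columns matched a neuron, and 0 were of no sample.

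Group means, SDs, medians and differences were computed for all 1024 genes in Python 3.11.15 (numpy 2.4.6, pandas 2.3.3). The difference of means was first tested on simulated data with a single normal mode per gene, unlike the measured values. Exact intervals (95%) used scipy 1.17.1. The trough is the start of the emptiest histogram bin (width 0.25) between the lowest mode and a value of 6, and emptier bins lie at higher values. Differences of at least 1 in size were counted, with no test because each group is 1 sample. Membership is by gene name and uses no measured value, but the set of members, the gene lists and the trough were chosen with earlier results of these data known. The rule for named genes took all members, listed pathway genes and the 5 genes most like the members' mean, and some of the genes outside the members are not reported here. By exactly equal values, 24 neurons shared at least 5 with others, and 4 shared 1: number 1 of the RFP-negative EtOH group, numbers 1 and 2 of the RFP-positive EtOH group, and PBS number 6. Alternatives were medians, arithmetic means, a pseudocount of 1, values raised to the trough, upper quartile scaling, other limits, a detection filter, neuron subsets and leaving out each neuron. Between the EtOH groups the detection filter kept 2 of 10 members and 305 of 1024 genes. For RFP-negative EtOH against PBS it kept 5 and 396, and for RFP-positive EtOH against PBS 4 and 372. Transcript stretches of 51 bases were matched within GENCODE M21. Exons of Psmb5 overlap those of Mir686 by 109 bases.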

Additional observations from a re-analysis of the deposited data

Results flagged for a closer look

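In groups of 6 or 7 neurons, the highest and lowest neuron were compared with Dixon's 95% limit for the gap to the nearest other neuron. Of 22 groups of values, 7 had a neuron past it. The limit marks about 1 in 20 groups by chance only for values of a single normal mode. That rate does not apply here, since 6 of the 7 are groups with exactly 1 neuron above the trough. For RFP-negative EtOH these were Psmb6 in neuron 3 (8.10, nearest 2.33), Psmd4 in neuron 6 (9.50, nearest 4.85) and Psmd14 in neuron 2 (7.21, nearest 2.75). For PBS they were Psmb5 in neuron 4 (5.25, nearest 2.65), Psmc4 in neuron 4 (9.13, nearest 3.31), Psmd6 in neuron 5 (5.87, nearest 2.44) and Psmd14 in neuron 3 (10.8, nearest 2.85). PBS neuron 4 also had the highest Gad1 value, 13.2.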

How the results depend on the processing

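No paired analysis was possible because the results come from no test and replicate numbers only name neurons. Psmb6 against PBS kept its sign in all settings run. Of 457 alternative values of the 17 differences past 1 in size, 451 kept their sign. These 17 were picked by their size in the same data. For the remaining differences, 41 of 343 alternative values changed sign. Most of the 457 leave out 1 neuron and share nearly all neurons with the main value, and these all kept their sign. A kept sign can go with almost no difference: Psmd2 in RFP-positive EtOH against PBS came to -0.00099 without 1 neuron. Every exception among the 457 came from the 8 other settings run for each difference. The exceptions were Psmd14 between the EtOH groups (-0.34, medians), Psmd2 in RFP-negative EtOH against PBS (-0.18, the 24 neurons) and, in RFP-positive EtOH against PBS, Psmd4 (0.26, arithmetic means), Psma3 (0.061, the 24 neurons) and Psmd2 (0.35 with Gad1, 1.72 with Mbp, at or below the trough).

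Between the EtOH groups, members at least 1 higher numbered 0 with medians and 1 with values raised to the trough, upper quartile scaling or low Mbp, beside 13.5%, 14.6%, 13.6% and 31.0% of all genes at these settings. Members at least 1 lower numbered 2 with medians, arithmetic means or low Gad1 (all genes 13.96%, 17.8% and 18.6%), 4 with upper quartile scaling (26.2%) and 3 in the 24 neurons (17.4%). The median difference was 0.40 with arithmetic means and 0.54 with low Gad1 (all genes 1.06 and 0.29). In RFP-negative EtOH against PBS, 1 was higher with medians, raised values or the 24 neurons (15.3%, 14.2% and 25.7%), and 6 were lower with arithmetic means (36.2%). In RFP-positive EtOH against PBS, 0 were higher with medians or raised values (11.2% and 11.6%), and 3 were lower with arithmetic means, the 24 neurons or low Gad1 (23.1%, 23.8% and 21.6%). With the limit at 3, the median number of members above it was 5 in PBS. It rose in both EtOH groups as well, and the share of all genes above that limit is not given here.

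Without single neurons, in the order of comparisons above, the median difference ran from -0.62 to 0.20, -0.57 to -0.13 and -0.68 to 0.38. Higher members numbered 1 to 4, 1 to 3 and 0 to 4, and lower members 1 to 3, 2 to 3 and 2 to 5. The median number above the trough ran from 2.5 to 3.5, 3 to 3 and 3 to 4 in RFP-negative EtOH, RFP-positive EtOH and PBS. The cause was not tested. The unknown read depth limits what low values can show.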
